A study of Mus musculus with 8 samples.

Results

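Imprinted genes are transcribed mainly from the allele of a single parent, and their levels were compared here among the arcuate nucleus (Arc), the ventromedial hypothalamus (VMH), the dorsomedial hypothalamus (DMH), and the lateral hypothalamus (LH). The genes are 38 mouse genes with known imprinting, and their probes were found through the RefSeq accession that the array files give for each probe. Of the 38 genes, 37 had a probe, with 63 of the 55681 probes of the array, and no probe was found by RefSeq accession for *H19*, a long noncoding RNA. The arrays measured the total RNA of a gene and hold no information on which allele it came from.

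The RNA came from female C57BL/6 mice (C57BL/6J in the methods) aged 3 months, with no genetic change and no treatment named, and the nuclei were cut out by laser microdissection. The tissue of 2 mice was used, and each nucleus was measured on 2 arrays, giving 8 arrays on 1 slide. The sources do not say which arrays share a mouse, so the spread between the 2 arrays of a nucleus may include only part of the variation between animals.

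Imprinting depends on DNA methylation laid down differently in the male and the female germ line at control regions, each of which can govern a cluster of genes. In a cluster, some genes are active from the paternal allele and others from the maternal allele, and several are imprinted in only some tissues, of which the brain is a leading one. In the hypothalamus, imprinted genes are known for effects on feeding, growth, temperature control, and maternal behaviour, and the loss of paternal genes of the Prader-Willi region is accompanied in humans by overeating.

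Signal intensities below are processed signals divided by the 75th percentile of each array relative to the geometric mean of the 8 percentiles, which keeps them in the range of the deposited intensities. A probe was tested if some nucleus had it well above background, as the scanner software calls it, on both of its arrays. Of the 63 probes, 59 of 35 genes were tested, as part of a fit over all 28896 probes that met this rule. Well above background on all 8 arrays were 51 of the 63 probes, and 4 were so on no array. These 4 are both probes of *Mkrn3*, an inhibitor of puberty onset (21.7 to 95.2 and 25.7 to 122), the probe of *Phlda2*, which restrains growth of the placenta, at 28.2 or less, and 1 of the 2 probes of *Airn*, the noncoding RNA antisense to *Igf2r*, at 29.6 or less. Signals at this level are not well above background and have no order. The smallest signal so called ranged from 79.3 (LH1) to 132 (LH2).

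Over the probes tested, arrays of 1 nucleus correlated at 0.971 to 0.981, except in the LH (0.938), where LH2 was closer to DMH2 (0.954) than to LH1. LH1 carried 364 spots marked as outliers, against 126 to 161 on the other arrays. Of 14 genes chosen as markers of the nuclei, 13 differed by the limma F-test, and *Agrp* in the Arc and *Nr5a1* in the VMH had their highest signals in the labelled nucleus. The signal of *Hcrt*, a peptide of LH neurons, was 51283 to 55939.9 in the DMH and 105971 to 116750.0 in the LH. All 14 oligodendrocyte markers were highest in the LH, with a summed signal of 144027 to 161276 against 14735 to 49311 elsewhere, and 9 of 10 tested markers of ependymal cells and tanycytes were highest in the Arc, with a sum of 11626 to 12754 in the Arc and 3951 to 5628 elsewhere. The 10 anterior pituitary markers were mixed. *Gh*, *Prl*, *Fshb*, *Pou1f1*, and *Tshb* were well above background on 0 arrays, *Cga* was so on Arc1 alone (1425), and 3 of the 4 tested passed the F-test. The summed signal of these 4 was 47518 to 48077 in the Arc and 8030.2 to 19995 elsewhere, of which *Pomc*, also a gene of Arc neurons, gave 40403 and 43108 in the Arc. *Tbx19* read 198 to 254 in the Arc and 19.4 to 122 elsewhere, *Lhb* did not pass, and *Chga* was highest in the VMH. The part of oligodendrocytes, tanycytes, and pituitary cells in the results was not tested. Each nucleus is a piece of tissue, so fewer cells of a type and less RNA per cell cannot be told apart.

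On their brightest probes, 25 of the 35 imprinted genes spanned less than 2-fold between their highest and lowest nucleus, and *Asb4*, *Calcr*, and *Dlk1* were lower in the VMH than in each other nucleus by 3.38-fold or more. By the limma F-test, with p-values adjusted over all probes tested and a threshold of 0.05, 11 of the 59 imprinted-gene probes (18.6%) differed among the nuclei, where 8.34% of all probes and 10.5% of the probes of named genes did. The count was 7 without Arc2, 7 without VMH1, and 18 without LH2. The 11 probes belong to 6 genes, *Asb4*, *Calcr*, *Dlk1*, *Peg10*, *Gnas*, and *Plagl1*. With a single probe per gene, the brightest of those tested, 4 of 35 genes passed (11.4%), against 10.8% of the 13167 named genes tested. By this measure the imprinted genes as a whole were close to the background. Of the 6 genes, *Gnas* and *Plagl1* passed on other probes than their brightest. The median difference between the highest and the lowest nucleus was 0.73 on the log2 scale for the imprinted genes and 0.64 for all named genes.

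The pairs of nuclei differed in how many imprinted-gene probes they separated. Between the Arc and the VMH, 12 of the 59 probes passed the threshold (5.92% of all probes did), and 11 of the 12 were higher in the Arc (2.4% of all probes in this direction, 3.52% in the other). Between the VMH and the DMH, 8 probes passed (2.04% of all probes), and all 8 were higher in the DMH (0.945% of all probes in this direction). Between the VMH and the LH, 9 probes passed (5.28% of all probes), and 8 of these were higher in the LH (3.04% of all probes in this direction, 2.24% in the other). Between the Arc and the LH, 7 probes passed (9.34% of all probes), and all 7 were higher in the Arc, the direction in which 3.33% of all probes passed. The count for the Arc and the LH fell to 0 without Arc1 and to 0 without Arc2, and to 4 without VMH1, VMH2, DMH1, or DMH2. For the Arc and the VMH it was 7 without Arc1, 6 without Arc2, 7 without VMH2, and 18 without LH1 or LH2. For the VMH and the DMH it was 5 without VMH1 or DMH1, and for the VMH and the LH 5 without VMH1 and 15 without LH2. By limma, 0 probes passed between the Arc and the DMH, where 1.26% of all probes did, and 0 between the DMH and the LH, where 0.924% did (2 without LH1 and 4 without LH2). At an unadjusted p under 0.05, the counts of these pairs were 6 and 10 by limma, and 0 and 5 by the Tukey-Kramer test. With the unmoderated Tukey-Kramer test of the methods and the same adjustment, 0 imprinted-gene probes passed in any pair.

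**Figure D1:**
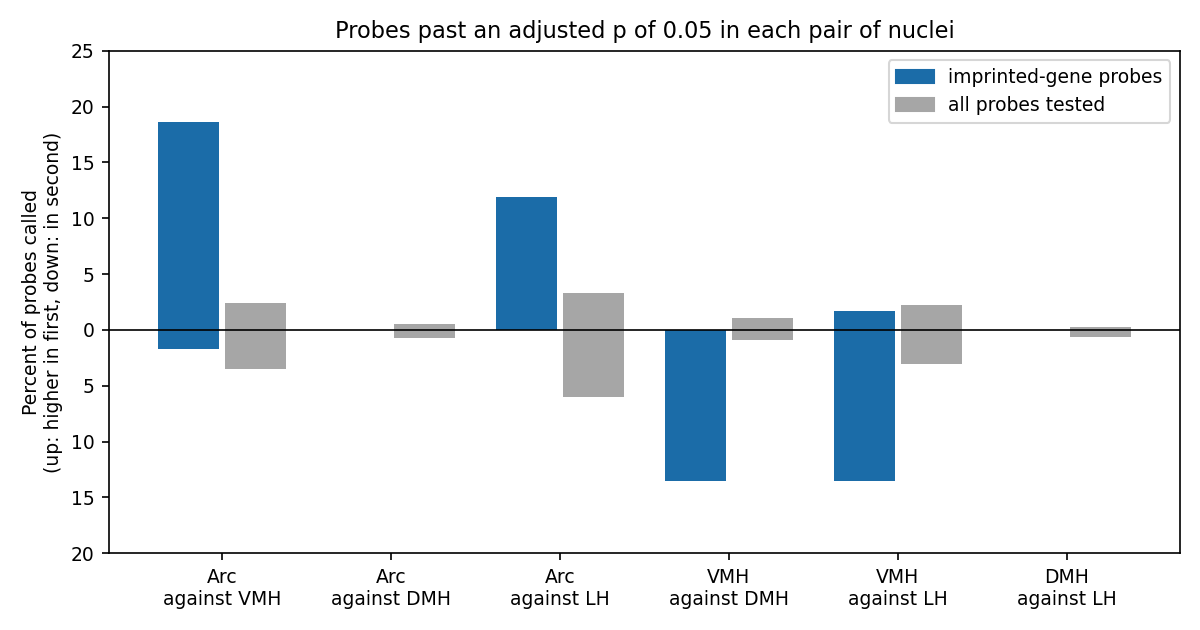
Percent of probes with an adjusted p under 0.05 in each of the 6 pairs of nuclei (limma), for the 59 imprinted-gene probes (blue) and all 28896 probes tested (grey), drawn upward when higher in the first nucleus and downward when higher in the second. In the pairs with the VMH, nearly all imprinted-gene calls are toward the other nucleus, and the Arc-DMH and DMH-LH pairs hold 0 imprinted-gene calls.

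The VMH was the lowest nucleus for most of the 15 probes that passed in some pair, and a part of these met a stricter rule. Lower in the VMH than in each other nucleus, with all 3 comparisons past the threshold, were 7 of the 59 probes (11.9%), against 0.484% of all probes. Among the probes of named genes it was 115 of 17234. The 7 probes belong to *Asb4*, *Calcr*, *Dlk1*, *Peg10*, and *Gnas*. With the brightest probe alone, *Asb4*, *Calcr*, and *Dlk1* met the rule, of 35 genes. This grouping was made after the values were seen. Without VMH1 the count was 4, and without any other single array it was 5 to 7. By limma, 0 imprinted-gene probes were higher in the VMH than in each other nucleus (0.54% of all probes), and 0 stood apart in the Arc (0.339% of all probes higher, 0.457% lower), in the DMH (0.0208% higher, 0.0173% lower), or in the LH (0.484% higher, 0.163% lower).

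The promoters of 3 of the genes low in the VMH, *Asb4*, *Calcr*, and *Dlk1*, whose probes all showed this pattern, are shown here. Every CpG, the dinucleotide whose cytosine can be methylated, is in capitals. Methylation was not measured, and these windows are not taken to be the control regions of imprinting. Each window runs from 250 bases before to 50 after a RefSeq start site (build GRCm38.p6, printed 5′ to 3′ on the gene's strand), and no window was given for *Peg10*. The 4 windows of *Gnas*, whose probes disagreed, are counted and not shown.

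Asb4 start 1, chr6:5383136-5383435, plus strand: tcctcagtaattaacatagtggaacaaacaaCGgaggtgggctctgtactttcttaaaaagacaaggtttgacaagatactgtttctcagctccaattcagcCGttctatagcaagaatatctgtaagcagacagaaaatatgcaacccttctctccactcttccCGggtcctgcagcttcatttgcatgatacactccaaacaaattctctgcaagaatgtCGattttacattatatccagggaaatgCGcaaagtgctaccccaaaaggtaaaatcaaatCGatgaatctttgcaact
Asb4 start 2, chr6:5390160-5390459, plus strand: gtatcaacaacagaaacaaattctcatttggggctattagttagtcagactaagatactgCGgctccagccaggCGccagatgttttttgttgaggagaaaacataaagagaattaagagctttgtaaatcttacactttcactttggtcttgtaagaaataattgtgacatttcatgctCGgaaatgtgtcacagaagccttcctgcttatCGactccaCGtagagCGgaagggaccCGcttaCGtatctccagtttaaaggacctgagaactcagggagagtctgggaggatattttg
Calcr start 1, chr6:3763574-3763873, minus strand: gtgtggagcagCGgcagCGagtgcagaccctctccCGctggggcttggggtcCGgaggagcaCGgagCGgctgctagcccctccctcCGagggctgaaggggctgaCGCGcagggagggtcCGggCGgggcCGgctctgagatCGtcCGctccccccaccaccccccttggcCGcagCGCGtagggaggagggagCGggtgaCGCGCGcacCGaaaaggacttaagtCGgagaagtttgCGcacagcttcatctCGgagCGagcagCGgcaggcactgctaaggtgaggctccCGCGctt
Calcr start 2, chr6:3764664-3764963, minus strand: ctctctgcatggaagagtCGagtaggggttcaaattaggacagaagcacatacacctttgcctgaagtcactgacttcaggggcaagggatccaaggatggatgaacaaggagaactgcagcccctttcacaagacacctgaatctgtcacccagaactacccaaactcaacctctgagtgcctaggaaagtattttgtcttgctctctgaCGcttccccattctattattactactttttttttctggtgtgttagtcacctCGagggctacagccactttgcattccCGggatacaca
Dlk1, chr12:109452573-109452872, plus strand: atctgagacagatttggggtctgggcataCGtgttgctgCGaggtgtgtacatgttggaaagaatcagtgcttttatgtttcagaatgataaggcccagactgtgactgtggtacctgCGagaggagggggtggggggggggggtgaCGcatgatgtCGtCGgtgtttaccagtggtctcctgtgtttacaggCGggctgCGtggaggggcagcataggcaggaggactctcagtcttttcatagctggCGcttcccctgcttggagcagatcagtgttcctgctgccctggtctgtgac

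The *Asb4* windows held 6 and 8 CpGs, the *Dlk1* window 9, the *Calcr* windows 29 and 4, and the *Gnas* windows 27, 16, 28, and 40, where the median over 32851 promoters of the same length was 7. The CpG counts thus ranged from 4 to 40 among genes with a probe low in the VMH.

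*Asb4*, an ankyrin-repeat and SOCS-box subunit of ubiquitin ligases that is active from the maternal allele, had the largest difference of the 35 genes by their brightest probes. Its signal (A_52_P594756) was 25394 and 23780.0 in the Arc, 1007 and 748 in the VMH, 16027 and 18678 in the DMH, and 12557 and 12729.9 in the LH. Both VMH arrays were far under the lowest of the other 6. The Arc exceeded the VMH 28.3-fold (log2 difference 4.82, SE 0.22, adjusted p = 0.000309, limma), the DMH exceeded it 19.9-fold (adjusted p = 0.000475), and the LH 14.6-fold (adjusted p = 0.000548). The Arc was also higher than the LH, 1.94-fold (adjusted p = 0.0421), a call lost under 13 of 21 alternatives. The other probe of *Asb4* gave 19830.1 and 24079.6 in the Arc, 962 and 719.8 in the VMH, 12277 and 11767 in the DMH, and 8204 and 6374 in the LH, the same order of nuclei, Arc, DMH, LH, VMH.

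*Calcr*, the calcitonin receptor, which also forms amylin receptors and is maternally expressed in brain, followed the same order. Its signal was 4312 and 3608 in the Arc, 244 and 139 in the VMH, 2385 and 3069 in the DMH, and 1156 and 1376 in the LH. No 2 nuclei overlapped. The Arc was 21.4-fold higher than the VMH (log2 difference 4.42, SE 0.31, adjusted p = 0.000966, limma), and the DMH was 14.7-fold higher (adjusted p = 0.00278). The LH was 6.84-fold higher than the VMH (adjusted p = 0.0061) and 3.13-fold lower than the Arc (adjusted p = 0.0224). Between the Arc and the DMH the difference did not pass. Over 21 alternatives the log2 difference ranged from 3.29 to 4.83 for Arc minus VMH and from -3.18 to -1.79 for VMH minus LH.

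*Dlk1*, a transmembrane protein with EGF repeats related to Notch ligands and paternally expressed, was lowest in the VMH and high in the other nuclei. Its signal (A_66_P117477) was 35167 and 39142 in the Arc, 8627 and 7558 in the VMH, 25694 and 28992 in the DMH, and 24272 and 38968 in the LH. The VMH stood apart, while the LH arrays spanned nearly the whole range of the Arc and the DMH. The Arc was 4.59-fold higher than the VMH (log2 difference 2.20, SE 0.27, adjusted p = 0.00633, limma), the LH 3.81-fold (adjusted p = 0.0116), and the DMH 3.38-fold (adjusted p = 0.0237). The dimmer probe of *Dlk1* gave a larger ratio, 8.61-fold between the Arc and the VMH (adjusted p = 0.00127), from 11507 and 12443 against 1281 and 1506.

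*Peg10*, which encodes a Gag-Pol-like protein derived from a retrotransposon and is paternally expressed, was low in the VMH and intermediate in the LH. Its brighter probe read 9096 and 11250.2 in the Arc, 2980.1 and 3068 in the VMH, 10425 and 10843 in the DMH, and 5626 and 4821 in the LH. The VMH was lower than the Arc (3.35-fold, log2 difference 1.74, SE 0.21, adjusted p = 0.00572, limma) and the DMH (3.52-fold, adjusted p = 0.00881), and against the LH the log2 difference of -0.78 missed the threshold (adjusted p = 0.0829). The dimmer probe read 778 and 719 in the Arc, 109.7 and 141 in the VMH, 671 and 796 in the DMH, and 367 and 296 in the LH, and passed in all 3 comparisons with the VMH. Its VMH1 signal was not well above background. On both probes the Arc was higher than the LH (1.94-fold, adjusted p = 0.0335, and 2.27-fold, adjusted p = 0.0242, limma). The call on the brighter probe was lost under 11 of 21 alternatives, and that on the dimmer probe under 7 of 20.

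*Gnas*, which encodes the stimulatory G protein alpha subunit and overlapping transcripts of either allele, gave a different pattern with each of its 3 probes. The brightest (A_55_P2081313, NM_010309) read 14198 and 18286 in the Arc, 17892 and 14304 in the VMH, 18020.1 and 11908 in the DMH, and 11819.7 and 19694 in the LH, with all nuclei overlapping. The probe of NM_201617 (A_52_P190394) read 742 and 574 in the Arc, 28.5 and 18.2 in the VMH, 305 and 283 in the DMH, and 176 and 334 in the LH. Neither VMH array was well above background for it. With the VMH set to the smallest signal that each array called well above background, the Arc was at least 6.28-fold higher than the VMH. The DMH was then at least 2.82-fold higher, and the LH at least 2.33-fold. The limma tests used the signals as read, with a log2 difference of 4.84 for Arc minus VMH (adjusted p = 0.00117). The log2 difference was -3.69 for VMH minus DMH (adjusted p = 0.00537) and -3.41 for VMH minus LH (adjusted p = 0.00524). The probe of NM_019690 (A_55_P2081323) read 6669 and 6675 in the VMH and 14802 and 14470.2 in the LH, 2.19-fold higher in the LH (adjusted p = 0.0184), with 10284 to 11574 in the Arc and the DMH. The array files do not say which protein each accession encodes, and the kinds of transcript are not named here.

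**Figure D2:**
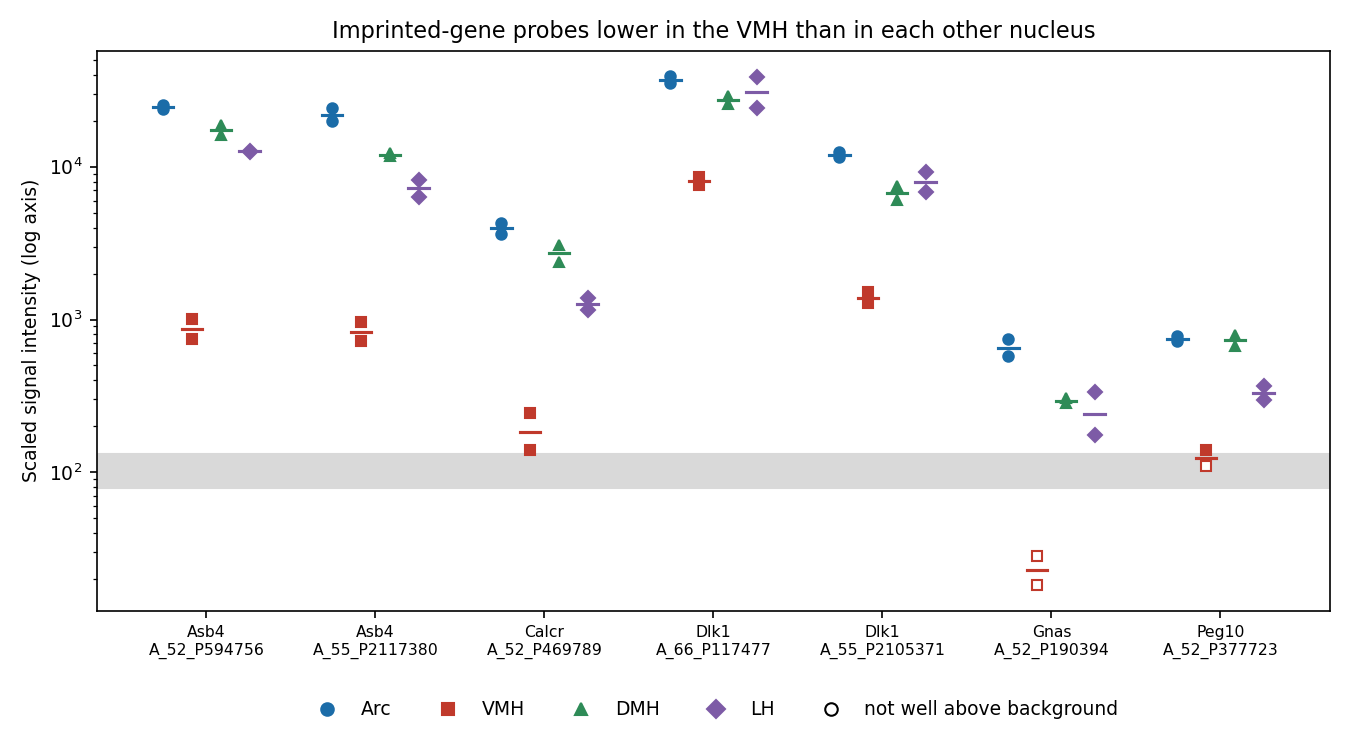
Scaled signal intensity (log axis) of the 7 imprinted-gene probes that were lower in the VMH than in each other nucleus, with a point per array, a bar at the geometric mean of the 2 arrays, and open symbols for signals not well above background. The grey band spans the lowest signal well above background over the 8 arrays, 79.3 to 132, and the VMH symbols of *Gnas* lie under it.

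Some markers of neuron types moved with this pattern. The 3 genes for GABA synthesis and vesicular loading were also low in the VMH. *Gad1* read 266 to 372 in the VMH and 7194 to 9704 elsewhere, *Gad2* read 923 to 1382 against 6277 to 12680.4, and the brighter probe of *Slc32a1* read 2084 to 3306 against 16094 to 27479. The Arc-VMH differences were 4.55 (adjusted p = 0.000384), 2.66 (adjusted p = 0.00343), and 2.69 (adjusted p = 0.00491) on the log2 scale by limma. *Slc17a6*, the glutamate transporter of synaptic vesicles, was highest in the VMH at 8341 to 10588, against 1365 to 5101 elsewhere. By limma the VMH differed from the Arc (adjusted p = 0.00422). Against the DMH (adjusted p = 0.116) and the LH (adjusted p = 0.0892) the difference did not pass. These genes were chosen after the values were seen, and their part in the result was not tested. The summed signal of 11 general neuron markers was 316574 to 362820 in the VMH and 265248 to 310455 elsewhere.

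*Calcr*, *Peg10*, and *Asb4* lie in a single imprinted cluster on chromosome 6, in which *Sgce*, which encodes epsilon-sarcoglycan, lies next to *Peg10*. The array has probes for 14 RefSeq genes from *Calcr* to *Asb4*, of which 5 are members and all 5 were tested. Of these, 3 had a probe lower in the VMH than in each other nucleus. *Sgce* read 2629 to 3428 over all 8 arrays (1.09-fold between the highest and the lowest nucleus). *Ppp1r9a*, which encodes neurabin, a subunit that directs protein phosphatase 1, read 18054 to 24388 (1.23-fold). Of the other 9 genes, 4 were tested (*Gng11*, *Bet1*, *Col1a2*, and *Casd1*), and 0 had a probe lower in the VMH than in each other nucleus. Among these only *Gng11* passed the F-test, at 9408 to 13765 in the LH and 2292 to 3673 elsewhere.

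On chromosome 12, *Dlk1* opens a cluster that runs to *Dio3*. Its neighbour *Meg3*, a maternal long noncoding RNA, read 8091 and 8542 in the Arc, 16039.8 and 11859.7 in the VMH, 15312 and 9956 in the DMH, and 19377 and 9651 in the LH on its brightest probe. The Arc was the lowest nucleus there, and no difference passed (smallest adjusted p = 0.281, limma). *Rtl1*, a paternal gene derived from a retrotransposon, read 851 and 1320.1 in the Arc, 398 and 339 in the VMH, 822 and 532 in the DMH, and 95.1 and 507 in the LH, with LH1 not well above background. Of the 7 genes of this stretch with a probe, all tested, *Dlk1* alone passed the F-test.

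**Figure D3:**
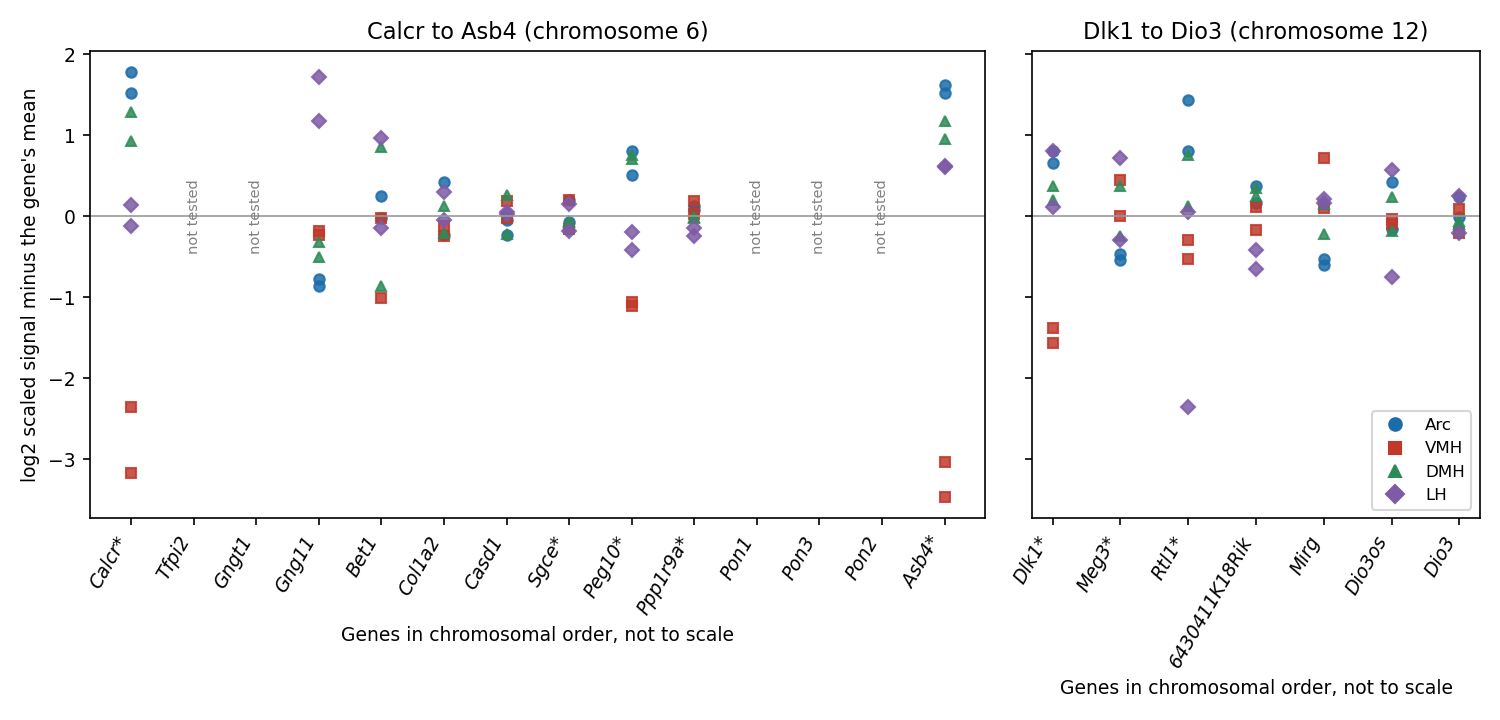
Log2 scaled signal minus the gene's mean over its arrays, 1 probe per gene and a point per array, for genes in their chromosomal order from *Calcr* to *Asb4* and from *Dlk1* to *Dio3* (asterisks mark the 38 imprinted genes studied here, and genes with no probe tested are marked). The VMH arrays lie under all others for *Calcr*, *Peg10*, *Asb4*, and *Dlk1*, nearest to the LH for *Peg10*, and not so for *Sgce* and *Ppp1r9a*.

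*Plagl1*, a zinc-finger transcription factor and paternally expressed, differed among the nuclei, and its probes disagreed. The brightest probe (A_55_P1961968) read 233448 and 182579 in the Arc, 90747 and 53447 in the VMH, 152179 and 143831 in the DMH, and 96575 and 124650.0 in the LH. The Arc was 2.96-fold higher than the VMH (log2 difference 1.57, SE 0.30, adjusted p = 0.0311, limma). A further probe of the same RefSeq accession gave 3.49-fold in this direction (adjusted p = 0.0225), and another 2.18-fold without passing (adjusted p = 0.0886). The remaining probe (A_55_P2153251) read 4210.4 and 3974 in the Arc, 7737 and 5555 in the VMH, 2933 and 2783 in the DMH, and 1248 and 614 in the LH. On it the VMH was the highest nucleus, 7.49-fold over the LH (adjusted p = 0.00783), and the Arc was 4.67-fold over the LH (adjusted p = 0.0123). All 4 probes carry NM_009538, so their accession does not separate them, and the direction of *Plagl1* between the Arc and the VMH depends on the probe.

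In the Prader-Willi and Angelman region, 0 of the 6 probes tested, of 4 genes, passed the F-test. *Magel2*, a MAGE-family protein of ubiquitin-ligase complexes, read 47101 and 32710.0 in the Arc, 50157 and 33894 in the VMH, 24300.4 and 30318 in the DMH, and 29808 and 20318 in the LH. The Arc and the VMH lay above the DMH and the LH, with a log2 difference of 0.74 (SE 0.32) between the VMH and the LH that did not pass (adjusted p = 0.246). *Ndn*, which encodes necdin, a growth suppressor of postmitotic neurons, read 15377 and 13383 in the Arc, 7651 and 7771 in the VMH, 10360.0 and 8273 in the DMH, and 8359 and 6329 in the LH. Both Arc arrays were above all others, and the Arc was 1.97-fold higher than the LH (log2 difference 0.98, SE 0.23, adjusted p = 0.0455, limma), a call that was lost under 11 of 21 alternatives. *Snrpn*, a spliceosomal protein of brain, read 19309 and 22680.0 in the Arc, 19339.5 and 25379.8 in the VMH, 21055 and 22743 in the DMH, and 21614 and 21416 in the LH on its brightest probe. This was among the flattest patterns of the set, 1.06-fold between the highest and the lowest nucleus. A dim *Snrpn* probe (A_55_P1990116) read 166 or less in the Arc, where it was not well above background, and 406 and 327 in the VMH. As read, the VMH was 2.31-fold higher (adjusted p = 0.0257, limma, lost under 10 of 20 alternatives). Over these alternatives the log2 difference of Arc minus VMH ranged from -1.48 to -0.52. *Ube3a*, the ubiquitin ligase lost in Angelman syndrome and maternal in neurons, read 3099 and 2599 in the Arc, 3185 and 2408 in the VMH, 3749 and 2977 in the DMH, and 2708 and 2191 in the LH. Both DMH arrays were above both LH arrays, 1.37-fold between these nuclei, and the other pairs overlapped. The amplified cDNA was double-stranded and labelled on both strands, so RNA antisense to *Ube3a*, and likewise the overlapping pairs *Igf2r* and *Airn*, *Nnat* and *Blcap*, and *Mest* and *Copg2*, may share signal.

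In the *Peg3* cluster, 0 of the 5 probes tested passed the F-test. *Peg3*, a zinc-finger transcription factor that is paternally expressed, read 16438 and 18559 in the Arc, 15772 and 15496 in the VMH, 19198 and 16861 in the DMH, and 16128 and 15312 in the LH. Its nuclei spanned 1.15-fold. *Usp29*, a ubiquitin-specific protease that is also paternally expressed, read 3568 and 3720.4 in the Arc, 8071 and 6326 in the VMH, 4984 and 4975 in the DMH, and 4475 and 5563 in the LH. Both VMH arrays were the highest and both Arc arrays the lowest, and the difference of 0.97 on the log2 scale (SE 0.22) narrowly missed the threshold (adjusted p = 0.0506, limma). The start sites of these genes face away from each other, and 263 bases of their 300-base windows are the same DNA, so the *Peg3* window with CpGs in capitals shows most of both.

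Peg3, chr7:6730370-6730669, minus strand: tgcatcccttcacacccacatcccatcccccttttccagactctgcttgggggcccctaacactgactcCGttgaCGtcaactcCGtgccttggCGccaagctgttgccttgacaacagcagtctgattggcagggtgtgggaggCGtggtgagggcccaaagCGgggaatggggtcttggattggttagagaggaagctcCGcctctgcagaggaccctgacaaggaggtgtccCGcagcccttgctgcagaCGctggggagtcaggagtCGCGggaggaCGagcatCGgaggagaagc

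*Zim1*, a maternal zinc-finger gene next to *Peg3*, read 808 to 1143 in the Arc, 1329 to 1966 in the VMH, 977 to 1292 in the DMH, and 26.6 and 623 on LH1 and LH2. LH1 was not well above background, and its gap to LH2 gives a standard error of 1.25 for each difference. LH2 was also under the 6 arrays of the other nuclei. The other probe of *Zim1* read 80.4 and 28.2 in the LH, not well above background, and 109 to 219 elsewhere, and no difference passed on either probe.

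Several imprinted genes restrain or carry growth signals. None of those in this paragraph passed a test. *Grb10*, the adaptor that restrains insulin and IGF receptors, read 3796 and 4657 in the Arc, 4927 and 4803 in the VMH, 4138 and 3661 in the DMH, and 2307 and 3956 in the LH. The VMH and the LH differed by 0.69 on the log2 scale (SE 0.29, adjusted p = 0.236), with LH1 alone far under the rest. *Igf2r*, the receptor that clears IGF2, had the flattest signal of the 35 genes, at 5338 to 6951 on the 8 arrays (1.05-fold between nuclei). The detected *Airn* probe read 279 to 660.5. *Igf2* itself was well above background on 5 arrays, at 31.1 to 245 over all 8. *Cdkn1c*, an inhibitor of cyclin-dependent kinases, read 1241 to 1348 in the Arc, 1616 to 1719.6 in the VMH, 726 to 806 in the DMH, and 310.0 and 1051 in the LH, with no difference past the threshold. *Mest*, an alpha/beta-hydrolase, read 5379 to 5940.4 in the VMH and 3124 to 4867 elsewhere, again without passing. *Copg2*, a coatomer subunit that overlaps *Mest*, read 9133 to 17122 on 7 arrays and 197 on LH1, and its other probe, at 2916 to 4985 with 3819 on LH1, did not show the drop.

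Several imprinted genes lie inside an intron of another gene, or host such a gene, and none of those in this paragraph passed a test. *Nnat*, which encodes neuronatin, a small membrane protein of the endoplasmic reticulum, read 44364 and 40579 in the Arc, 26515 and 35793 in the VMH, 34026 and 36397 in the DMH, and 33938 and 27452 in the LH. Both Arc arrays were the highest, at 1.39-fold over the lowest nucleus, and the other probe of *Nnat* gave 1.58-fold with the Arc again the highest (smallest adjusted p = 0.101). Its host *Blcap* read 87363 to 146043 (1.32-fold). *Nap1l5*, of the nucleosome assembly protein family, read 20304 to 40871 with the DMH highest (1.63-fold). *Mcts2* read 2634 to 4336 with the LH highest (1.41-fold). *Zrsr1*, related to a splicing factor subunit, read 1247 to 1991 (1.13-fold). Its host *Commd1* read 539.7 to 598 in the VMH and 675 to 1074 elsewhere (1.73-fold), with both VMH arrays under the other 6 and no comparison past the threshold (smallest adjusted p = 0.104).

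The other genes complete the set. *Rasgrf1*, an exchange factor for Ras in neurons, read 10611 and 10969.7 in the Arc, 5557 and 6191 in the VMH, 9461 and 9225 in the DMH, and 11799.7 and 9838 in the LH. The VMH was below every other array, 1.84-fold under the Arc (log2 difference 0.88, SE 0.20, adjusted p = 0.0496, limma), a call lost under 11 of 21 alternatives. Its other probe read 578 and 565 in the Arc, 388 and 338 in the VMH, 364 and 521 in the DMH, and 345 and 312 in the LH, with the LH the lowest nucleus and no difference past the threshold. *Impact*, an inhibitor of the kinase Gcn2, read 20207 to 35370.5 (1.59-fold). *Inpp5f*, an inositol phosphatase, read 343 to 844 (1.65-fold). *Zdbf2*, a zinc-finger protein, read 786 to 1695 (1.69-fold). Its other probe read 178 to 266 in the Arc and 40.9 to 44.7 in the VMH, where it was not well above background. On this probe the Arc was at least 2.09-fold higher. With the signals as read the ratio was 5.09-fold and did not pass (adjusted p = 0.0833, limma). *Trappc9*, a subunit of a trafficking complex, read 12306 to 17667 (1.38-fold) on the 7 arrays with a value, since the spot on LH1 was marked as an outlier and the fit dropped it.

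Over the 35 genes with 1 probe each, 12 had a ratio of the highest to the lowest nucleus under 1.5, 25 under 2, and 4 over 5, namely *Asb4*, *Calcr*, *Zim1*, and *Copg2*. For *Copg2* the ratio rests on LH1 alone, and for *Zim1* mostly on LH1. The highest nucleus was the Arc for 12 genes (34.3%, against 25.3% of all named genes tested), the VMH for 12 (34.3% against 26.3%), the DMH for 8 (22.9% against 12.1%), and the LH for 3 (8.57% against 36.4%). The lowest was the LH for 14 (40.0% against 25.4%), the VMH for 11 (31.4% against 25.1%), the Arc for 5 (14.3% against 32.8%), and the DMH for 5 (14.3% against 16.7%). These shares are a description and were not tested. In *Copg2*, *Rtl1*, *Cdkn1c*, *Grb10*, *Nap1l5*, and *Blcap*, of the 14 genes lowest in the LH, LH1 was the lowest array. On LH2 alone these genes were above the mean of another nucleus. In 14 genes both arrays of the highest nucleus lay above the other 6 arrays (40.0%, against 36.8% of named genes and 31.2% of all probes), and in 14 both arrays of the lowest lay below the others (40.0%, against 33.5% of named genes and 30.3% of all probes). Of the genes usually active from the paternal allele 2 of 21 passed the F-test (9.52%), and of those active from the maternal allele 2 of 12 (16.7%), where 10.8% of named genes did, with median log2 ranges of 0.73 and 0.76 (the difference was not tested). Of the 18 genes with more than 1 probe tested, the probes of 12 had the same highest nucleus.

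**Figure D4:**
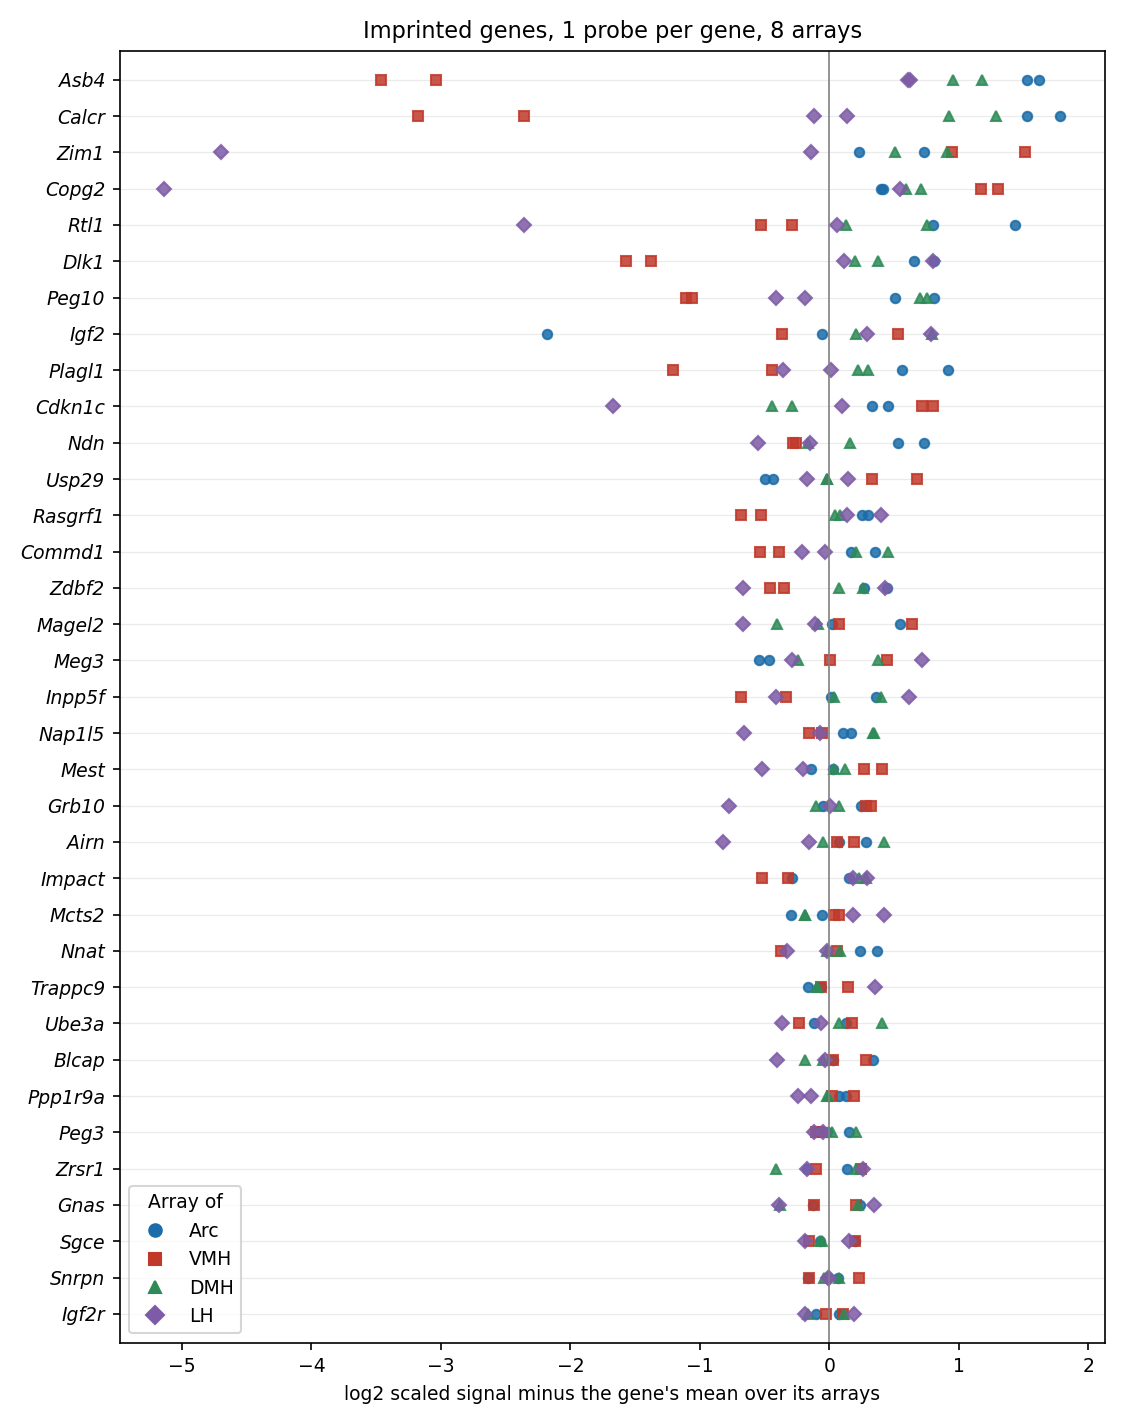
Log2 scaled signal of the 35 imprinted genes on each array, minus the gene's mean over its arrays, with 1 probe per gene and genes ordered by the difference between their highest and lowest nucleus. *Asb4*, *Calcr*, *Dlk1*, and *Peg10* show both VMH arrays to the left of all others, as do *Plagl1*, *Rasgrf1*, *Commd1*, and *Impact* with smaller ranges. *Copg2*, *Rtl1*, and *Cdkn1c* show a single LH array there, and *Zim1* both, with LH1 far lower. Most other genes stay within about a log2 unit of their mean.

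RefSeq windows were found for 31 of the 38 genes, 49 windows in all, with a median of 16 CpGs and a range of 1 to 48, where the median over all promoters was 7. Some of the 49 windows share DNA, and the difference was not tested. A search on both strands found the letters CAAGGTCA, a half-site of the VMH factor NR5A1, in 0 of the 49 windows (1.56% of all promoters hold it). GCCATNTT, a core of YY1 sites, was in the windows of *Mkrn3* and *Ube3a* (6.05% of all promoters). A match is letters in a window, not a known site.

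A list of 65 further genes with imprinting reported in mouse was set beside these. Of its 55 probes tested, for 42 genes, 7 passed the F-test (12.7%, against 8.34% of all probes and 10.5% of the probes of named genes), and 2 were lower in the VMH than in each other nucleus (0.484% of all probes), namely *Th* and *Dlx5*. *Th*, the rate-limiting enzyme of dopamine synthesis, read 31311 and 34984 in the Arc, 3899.9 and 3242 in the VMH, 20687 and 23366 in the DMH, and 13167 and 17263 in the LH, which is the order of *Asb4* and *Calcr*. *Dlx5*, a homeobox factor of GABA neurons, read 142 to 157 in the VMH, where VMH1 was not well above background, and 489 to 669.9 elsewhere. The other 5 that passed had other patterns. *Gatm*, an enzyme of creatine synthesis, was highest in the LH at 2341 to 5196 against 343 to 1085. *Gab1* was also highest there at 1558 to 2329 against 643 to 1138, and *Htr2a*, a serotonin receptor, was highest in the VMH at 1904 to 2613 against 404 to 971. *Slc22a18* was at 204 to 306 in the Arc and the LH and 20.4 to 80.5 in the VMH and the DMH, where it was not well above background, and a dim probe of *Ddc* was at 586 to 608 in the Arc and 248 to 298 in the LH.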

How the data were processed

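RNA of 4 laser-microdissected nuclei was amplified as a whole transcriptome and hybridized to 8 one-color arrays, read in the red channel (the labels name Cy3, the methods Cy5). The authors deposited processed signal intensities from Agilent Feature Extraction (version 10.7.3.1 in the file headers, 11.5.1.1 in the methods), with background subtracted and no scaling between arrays. A deposited series table repeats them, rounded.

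Spots with an outlier mark were dropped, replicate spots were averaged, and log2 was taken of the deposited intensities over the array's 75th percentile. No array was left out. A linear model with a mean per nucleus was fitted with limma 3.58.1 in R 4.3.3 (4 residual and 3.02 prior degrees of freedom), with a moderated F-test and 6 two-sided contrasts, each with Benjamini-Hochberg adjustment over 28896 probes. Of 28390 probes with a RefSeq accession, 94.3% were given a symbol through GRCm38.p6, used otherwise for gene order and promoters. For a nucleus with no array well above background, a lower bound of the ratio was given. The *Snrpn* ratio is as read, since its Arc signals exceeded the smallest ones called well above background. Adjusted p-values are those of the signals as read, not of the bounds. The number of arrays limits the precision.

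Every gene was named, with each array's values for those whose brightest probe passed the F-test and for a preset set of well-known genes. The members and lists were chosen with earlier results of these data known. A further marker of the neuron types is not reported here. The fit was checked on simulated data.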

Additional observations from a re-analysis of the deposited data

How the results depend on the processing

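Of 36 differences between nuclei past the threshold, 0 changed sign in 748 values over 21 alternatives, and 147 of these values no longer passed. The *Asb4* difference between the Arc and the VMH ranged from 4.35 to 5.04 and passed in 20 of 21. Under the methods' ANOVA with Tukey-Kramer pairs, which estimate each probe's spread from 8 arrays alone, 7 probes passed the F-test, and for Arc-VMH, Arc-LH, VMH-DMH, VMH-LH, and the probes lower in the VMH the counts were 0 each. Fits of only the nuclei compared gave 1 probe for Arc-LH, 3 for VMH-LH, and 3 lower in the VMH. For Arc-LH the count was 3 with no scaling and 3 with no filter on dim probes. For DMH-LH it was 1 with normexp, 1 with probes well above background on all arrays, and 2 with trended and robust moderation. Leaving out single arrays, the counts ranged from 7 to 18 for the F-test, 6 to 18 for Arc-VMH, 0 to 10 for Arc-LH, 5 to 10 for VMH-DMH, 5 to 15 for VMH-LH, 0 to 4 for DMH-LH, and 4 to 7 for the probes lower in the VMH, with 0 throughout for Arc-DMH. The F-test count was 7 without Arc2, 7 without VMH1, and 18 without LH2. Without Arc1 and without Arc2 the Arc-VMH count was 7 and 6 and the Arc-LH count 0, without VMH2 they were 7 and 4, and without VMH1, DMH1, or DMH2 the Arc-LH count was 4. VMH-DMH fell to 5 without VMH1 and without DMH1. VMH-LH was 5 without VMH1 and 15 without LH2, DMH-LH was 2 without LH1 and 4 without LH2, and the probes lower in the VMH were 4 without VMH1. Leaving out an array leaves a lone array assumed to vary like the other groups. Without LH1, Arc-VMH and without LH2, Arc-VMH gave 18.

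With no scaling, the median difference over all probes tested was -0.46 between the Arc and the DMH and -0.26 between the Arc and the VMH, against 0.02 and 0.01 with it. The replicate number as a block gave 9 probes in the F-test, 11 for Arc-VMH, 6 for Arc-LH, and 7 lower in the VMH. The differences between arrays 1 and 2 correlated between nuclei at -0.03 to 0.26, so the numbers were not taken to pair samples, and they coincide with the rows of the slide. Signal over background limits *Igf2*, *Mkrn3*, *Phlda2*, and the dim probes of *Gnas*, *Snrpn*, and *Peg10*.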
